A study of Mus musculus with 36 samples.

Results

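*Clk1*, *Clk2*, *Clk3* and *Clk4* encode the CDC2-like kinases (CLKs), and *Srsf2*, *Srsf3*, *Srsf5*, *Srsf6*, *Srsf7* and *Srsf10* encode serine/arginine-rich (SR) splicing factors. These 10 genes were taken by name from the 55416 genes with counts, by a rule that uses gene names only and with earlier results of these data known, as 4 kinases and 6 of the factors that such kinases phosphorylate. All 10 passed the filter on low counts, and the smallest count of any of them in any library was 621. The counts come from C2C12 myotubes, the multinucleate muscle cells that form when this mouse myoblast line is moved to low-serum medium, in 6 groups of 6 libraries each (36 in all). Every culture was transfected on day 3 of differentiation with an antisense locked nucleic acid (LNA), which targeted the long non-coding RNA *Tug1* (*Tug1* KD myotubes) or was a negative control LNA (control myotubes), and was studied on day 4. Rest cultures held electrodes that were not connected, and the others received electrical pulse stimulation (EPS) for 3 h, with 2 ms pulses of 13 V at 66 Hz given for 5 s in turn with 5 s without pulses. They were harvested at its end, called EPS 0h, or once 3 h had passed without stimulation, called EPS 3h. The 6 groups are thus Rest, EPS 0h and EPS 3h under the control LNA and the same under the *Tug1* LNA, all from 1 cell line with 1 *Tug1* LNA, and 1 Rest group per LNA served both time points.

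CLKs are nuclear kinases that phosphorylate the arginine/serine-rich domains of SR proteins, which releases SR proteins from nuclear speckles and makes them available to the spliceosome. SR proteins bind exonic sequences and promote or repress the use of nearby splice sites, and several also accompany mRNA out of the nucleus. Many genes of both families control their own level, through introns that stay in the *Clk1* and *Clk4* transcripts until a stress signal releases them, and through exons of SR genes whose inclusion sends the transcript to nonsense-mediated decay. In skeletal muscle, splicing of sarcomere and calcium-handling genes is changed extensively during differentiation and by use. The annotation shows this layout, since the 10 genes have 419 annotated transcripts, of which 152 are protein-coding, 216 are marked as targets of nonsense-mediated decay and 34 as retained introns. Each of the 10 has at least 1 transcript of the decay class, and the counts sum over all transcripts of a gene, so they do not separate productive from unproductive forms.

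Counts on genes were 17005079 to 24181167 per library, and the 10 genes together held 0.099 to 0.171% of them. The *Tug1* LNA lowered its own target under all 3 conditions, to 27.2 ± 3.69 from 48.4 ± 6.78 CPM (counts relative to the TMM-scaled library size, mean ± SD, n = 6) at Rest (log2FC −0.83, FDR 0.000915), with log2FC −0.57 directly after EPS (FDR 0.0178) and −0.51 after recovery (FDR 0.0414). The study used triplicate wells from 2 independent experiments, and replicates 1 to 3 part from replicates 4 to 6 apart from the EPS 3h libraries of replicate 3, so both sets are also given alone. Nothing in the labels says which experiment a number belongs to, and the p-values measure the spread among these wells. Without a block that spread includes the difference between the sets. The EPS 3h libraries of replicate 3, in control and in *Tug1* KD myotubes, stand apart, since after centring their mean correlation was −0.318 and −0.262 with their own set and −0.199 and −0.162 with the other, while that of the other 34 libraries with their own set was 0.0145 to 0.473. Of the 16 myotube markers, none of the 15 tested passed the test after EPS in control myotubes (those that passed in *Tug1* KD myotubes are given with those results), and their summed level was 14837 to 21679 CPM over all 36 libraries.

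The sequences just upstream of the start are shown for the 4 genes that passed the test at EPS 0h in control myotubes, *Clk4* and *Clk3* (higher) and *Srsf5* and *Srsf6* (lower), because these are the members the EPS results turn on. They are the 250 bases before the start in the RefSeq promoter table, which held 9 of the 10 genes (all but *Clk1*), and each was found once in GRCm39, at chr11:51153691-51153940 on the + strand for *Clk4*, chr9:57672398-57672647 on the − strand for *Clk3*, chr12:80992023-80992272 on the + strand for *Srsf5* and chr2:162773178-162773427 on the + strand for *Srsf6*. Part or all of each window lies in exons that GENCODE annotates for other transcripts of the gene (222, 250, 161 and 129 of the bases, respectively). Capitals mark matches to the motifs described after the sequences, 5′ to 3′ on the strand of the gene:

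Clk4: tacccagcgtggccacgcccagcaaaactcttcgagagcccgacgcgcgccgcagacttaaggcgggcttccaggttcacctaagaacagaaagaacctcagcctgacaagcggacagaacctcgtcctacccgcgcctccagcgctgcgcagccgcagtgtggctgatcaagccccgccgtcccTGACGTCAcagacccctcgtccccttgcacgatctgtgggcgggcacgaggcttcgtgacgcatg
Clk3: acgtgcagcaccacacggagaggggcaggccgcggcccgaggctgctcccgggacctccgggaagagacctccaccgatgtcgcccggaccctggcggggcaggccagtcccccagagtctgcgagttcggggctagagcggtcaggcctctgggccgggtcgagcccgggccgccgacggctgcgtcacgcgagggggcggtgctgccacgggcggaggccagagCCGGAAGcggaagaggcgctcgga
Srsf5: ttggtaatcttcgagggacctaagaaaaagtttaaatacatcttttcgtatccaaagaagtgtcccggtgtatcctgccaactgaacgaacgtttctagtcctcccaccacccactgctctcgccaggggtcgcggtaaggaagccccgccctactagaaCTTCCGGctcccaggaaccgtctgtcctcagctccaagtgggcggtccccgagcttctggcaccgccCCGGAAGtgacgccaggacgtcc
Srsf6: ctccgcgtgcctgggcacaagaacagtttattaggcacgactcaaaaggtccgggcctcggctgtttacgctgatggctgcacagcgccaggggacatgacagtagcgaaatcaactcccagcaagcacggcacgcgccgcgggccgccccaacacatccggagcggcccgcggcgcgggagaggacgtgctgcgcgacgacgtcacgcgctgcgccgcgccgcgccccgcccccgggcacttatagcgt

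The following 5 motifs were searched on both strands in these 250 bases of the 9 genes and of all 32851 promoters of the table. The cyclic AMP response element TGACGTCA, the site of CREB-family factors, was found in the *Clk4* promoter, 65 to 58 bases before the start, and in 1.55% of all promoters. The ETS-family motif CCGGAAG was found once in the *Clk3* promoter, 24 to 18 bases before the start, on both strands of the *Srsf5* promoter, as CTTCCGG at 90 to 84 and CCGGAAG at 23 to 17 bases before the start, in the *Srsf7* promoter at 218 to 212 bases, and in 6.91% of all promoters. The E-box CACGTG was found in the *Clk2* promoter, 159 to 154 bases before the start, and in 6.02% of all promoters. Neither the AP-1 motif TGAGTCA (4.46% of promoters) nor the short heat shock element GAANNTTC (6.69% of promoters) was found in any of the 9. The promoter of *Srsf6* held none of the 5. The members that rose and those that fell therefore share no motif among these apart from the ETS letters of *Clk3* and *Srsf5*, which moved in opposite directions. A match is only a description of the letters, and binding was not measured.

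Levels between genes were compared per length (RPKM, CPM divided by length in kilobases, over the exon bases of GENCODE and not the authors' annotation). In Rest control myotubes the order was *Srsf5* (62.0 ± 12.3 RPKM), *Srsf6* (43.4 ± 5.18), *Srsf3* (24.8 ± 2.31), *Srsf2* (20.5 ± 3.91), *Srsf7* (14.8 ± 0.956), *Clk1* (12.3 ± 3.60), *Clk2* (11.0 ± 2.05), *Srsf10* (8.02 ± 1.01), *Clk4* (6.98 ± 2.12) and *Clk3* (4.02 ± 0.228; all SD, n = 6). The ranges of mean ± SD overlap between *Srsf3* and *Srsf2* and between each neighbour from *Srsf7* down to *Clk4*, and part at the other steps of the order. In Rest control myotubes the SR genes apart from *Srsf10* thus took the top of the order. In all 6 groups *Srsf5*, *Srsf6* and *Srsf3* were the first to the third and *Clk3* was the last. At EPS 3h in control myotubes *Srsf5* was at 40.5 ± 1.80, *Clk1* at 17.3 ± 3.94 and *Clk4* at 13.5 ± 3.15 RPKM (SD, n = 6), which put *Clk1* at rank 4 and *Clk4* at rank 7.

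The first comparison asks what 3 h of EPS does in control myotubes. *Clk3* and *Clk4* rose and *Srsf5* and *Srsf6* fell, so 4 of the 10 genes passed the test (FDR under 0.05), 2 higher and 2 lower, where 20.5% of the 13995 genes tested were higher and 18.4% were lower (16.6% and 24.9% with scaling by library size only). The 2 that rose are among the 4 kinases and the 2 that fell are among the 6 SR factors, and the other members did not pass. Counts of 2 in 10 are near the shares over all genes. The median log2FC of the 10 was 0.05, beside −0.03 over all genes. None of the 10 met a stricter rule (FDR under 0.01 and an absolute log2FC above 1, which applies the study's threshold for genes higher after EPS in both directions), which 8.43% of genes met.

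*Clk4* encodes the close paralog of CLK1. Its level (lowest, median and highest of 6 libraries) was 55.2, 77.6 and 120 CPM at Rest and 112, 138 and 167 CPM at EPS 0h, a rise of 0.74 (SE 0.17, FDR 0.000623, 1.67-fold). The groups overlap through 1 Rest library, that of 120 CPM. The Rest libraries of replicates 1 to 3 lie at 85.5 to 120 CPM and those of replicates 4 to 6 at 55.2 to 69.6 CPM. *Clk3*, whose product is the least studied of the family, had 33.8, 37.1 and 39.7 CPM at Rest and 52.6, 55.9 and 62.7 CPM at EPS 0h, with no overlap and the smallest FDR of the 10 (log2FC 0.60, SE 0.06, FDR 3.3e-09, 1.52-fold).

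*Clk1*, the best known of the kinases, had 69.9, 102 and 149 CPM at Rest and 108, 145 and 182 CPM at EPS 0h (log2FC 0.44, SE 0.18, FDR 0.0537), which missed the threshold. The Rest libraries of *Clk1* fall into 115 to 149 CPM in replicates 1 to 3 and 69.9 to 88.4 CPM in replicates 4 to 6. Within each set *Clk1* did pass the test, with log2FC 0.40 (FDR 0.0412) in replicates 1 to 3 and 0.51 (FDR 0.00293) in replicates 4 to 6, and with the replicate number as a block it was 0.46 (FDR 0.000566). *Clk2*, a kinase also known for its role in insulin-dependent control of liver glucose genes, had 44.6, 63.3 and 69.9 CPM at Rest and 61.3, 64.4 and 73.6 CPM at EPS 0h (log2FC 0.17, SE 0.11, FDR 0.219).

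**Figure D1:**
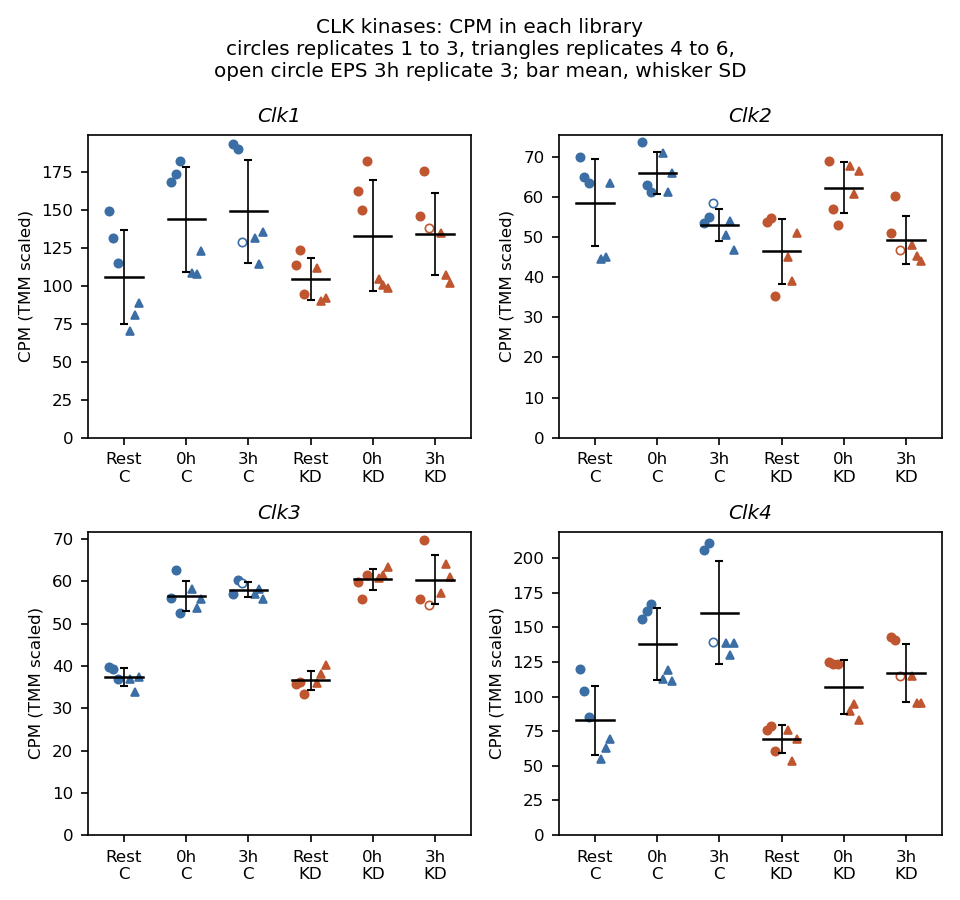
Level of each CLK gene (CPM, linear axis from 0) in each of the 36 libraries, by condition (Rest, EPS 0h, EPS 3h) and LNA (C, control, blue; KD, *Tug1* KD, orange). Circles are replicates 1 to 3, triangles replicates 4 to 6 and open circles the EPS 3h libraries of replicate 3; bars are means and whiskers SD (n = 6). *Clk3* at Rest (33.8 to 39.7 CPM in control myotubes) lies below all its EPS libraries, while *Clk1* and *Clk4* split by set in control myotubes at Rest and EPS 0h.

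*Srsf5*, an SR factor with a known response of its mRNA to growth signals, fell the most of the 10 genes. It had 261, 356 and 423 CPM at Rest and 176, 190 and 221 CPM at EPS 0h, with no overlap (log2FC −0.85, SE 0.11, FDR 5.75e-08, 0.553 of the Rest level). *Srsf6*, a relative of *Srsf5* with a pair of RNA recognition motifs, had 229, 273 and 300.4 CPM at Rest and 166, 175 and 203 CPM at EPS 0h, again with no overlap (log2FC −0.58, SE 0.08, FDR 2.33e-07).

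*Srsf2*, whose protein marks nuclear speckles, had 56.1, 73.7 and 89.5 CPM at Rest and 46.3, 58.6 and 71.0 CPM at EPS 0h (log2FC −0.33, SE 0.14, FDR 0.0601). It missed the threshold without the block and passed it with the block (−0.32, FDR 0.009). *Srsf3* and *Srsf7*, which also act as adaptors for mRNA export, had log2FC of −0.01 (SE 0.08, FDR 0.907) and −0.15 (SE 0.09, FDR 0.227). *Srsf10*, a splicing repressor when it is dephosphorylated in heat shock or mitosis, had log2FC 0.12 (SE 0.12, FDR 0.444).

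**Figure D2:**
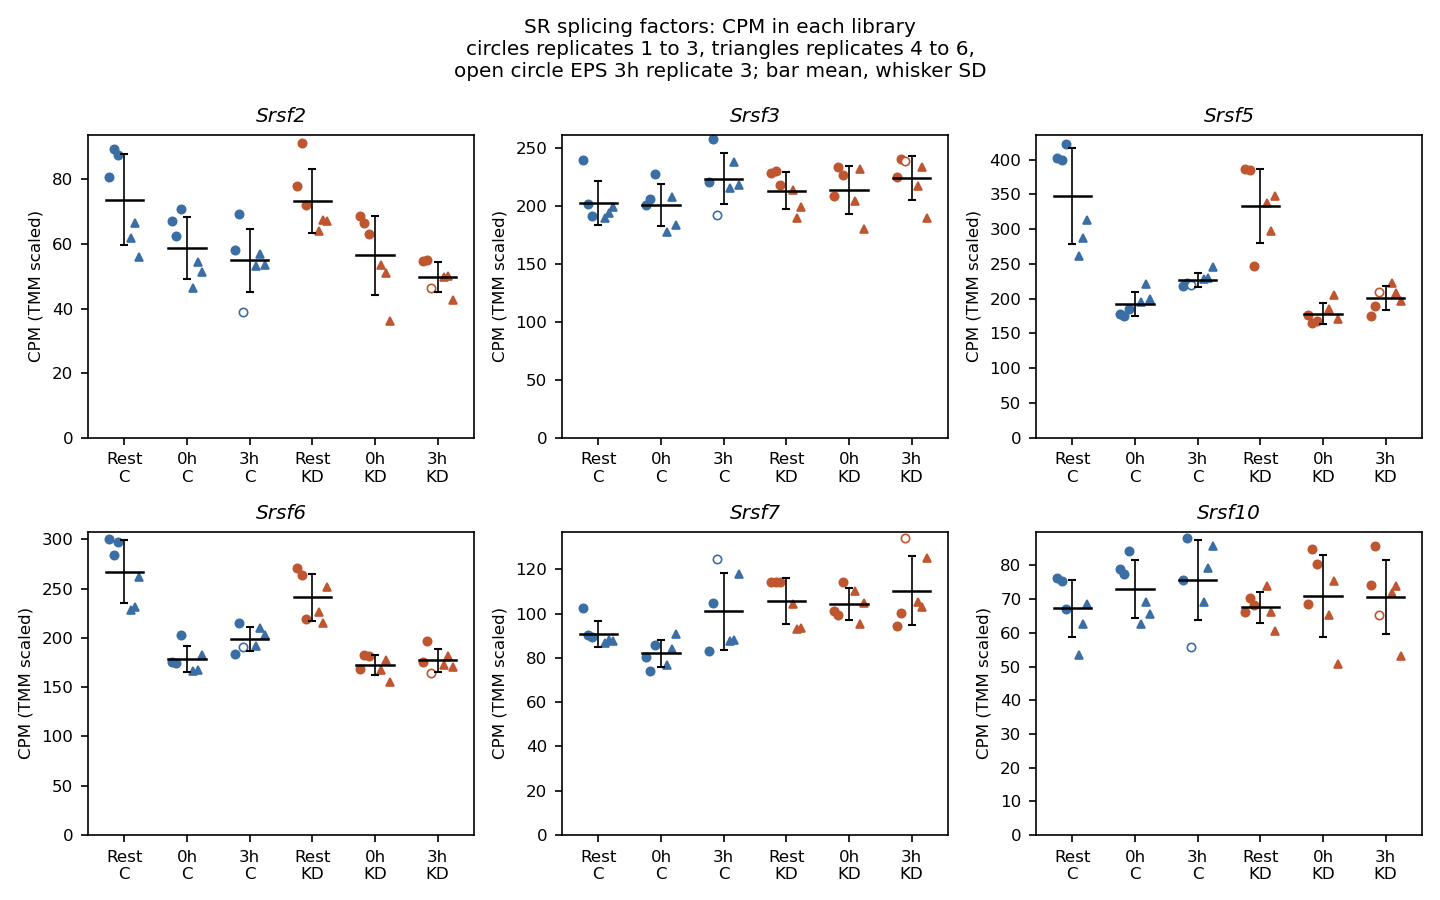
Level of each SR gene (CPM, linear axis from 0) in each of the 36 libraries, with the groups, symbols, means and SD (n = 6) drawn as for the CLK genes. *Srsf5* and *Srsf6* at Rest (from 261 and 229 CPM upward in control myotubes) lie above all their EPS libraries of the same LNA, while *Srsf3* and *Srsf10* overlap between all conditions.

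The second comparison asks what remained or appeared after 3 h of recovery. Relative to Rest, *Clk1*, *Clk3* and *Clk4* rose and *Srsf2*, *Srsf5* and *Srsf6* fell in control myotubes, so 6 of the 10 passed the test, 3 in each direction, where 26.1% of all genes were higher and 25.9% lower (19.1% and 39.5% with scaling by library size only). Both EPS comparisons share the Rest libraries. None met the stricter rule, which 14.3% of genes met. The median log2FC of the 10 was 0.15, beside −0.02 over all genes.

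*Clk4* was at 130, 139 and 211 CPM at EPS 3h, above every Rest library (log2FC 0.96, SE 0.17, FDR 1.14e-05, 1.94-fold). *Clk3* was at 55.8, 57.6 and 60.4 CPM, also without overlap (0.64, SE 0.06, FDR 2.42e-10). *Clk1* was at 114, 133 and 193 CPM (0.49, SE 0.18, FDR 0.0241, 1.41-fold). *Clk1* overlaps its Rest group, and its call was lost without replicate 4 (0.43, FDR 0.0744), with scaling by library size only (0.32, FDR 0.144) and with no filter on low counts (0.40, FDR 0.0798). *Clk2* was at 46.7, 53.7 and 58.4 CPM (−0.14, SE 0.11, FDR 0.28, and −0.32, FDR 0.0192, with scaling by library size only).

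*Srsf5* was at 218, 225 and 245 CPM at EPS 3h, again below every Rest library (log2FC −0.61, SE 0.10, FDR 7.02e-06). *Srsf6* was at 184, 197 and 215 CPM, without overlap (−0.42, SE 0.08, FDR 1.92e-05). *Srsf2* was at 39.0, 55.2 and 69.2 CPM (−0.42, SE 0.14, FDR 0.0104), and overlapped its Rest group. Its call was lost without replicate 3 (−0.29, FDR 0.102), and kept without the EPS 3h libraries of replicate 3 only (−0.35, FDR 0.0312). *Srsf3*, *Srsf7* and *Srsf10* had log2FC of 0.14 (FDR 0.143), 0.15 (FDR 0.171) and 0.17 (FDR 0.229). Each of these genes passed in 1 of the 19 alternative fits. For *Srsf3* (FDR 0.0182) and *Srsf10* (FDR 0.0159) it was the set block without the EPS 3h libraries of replicate 3. *Srsf7* had FDR 0.0489 in the fit that called it.

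**Figure D3:**
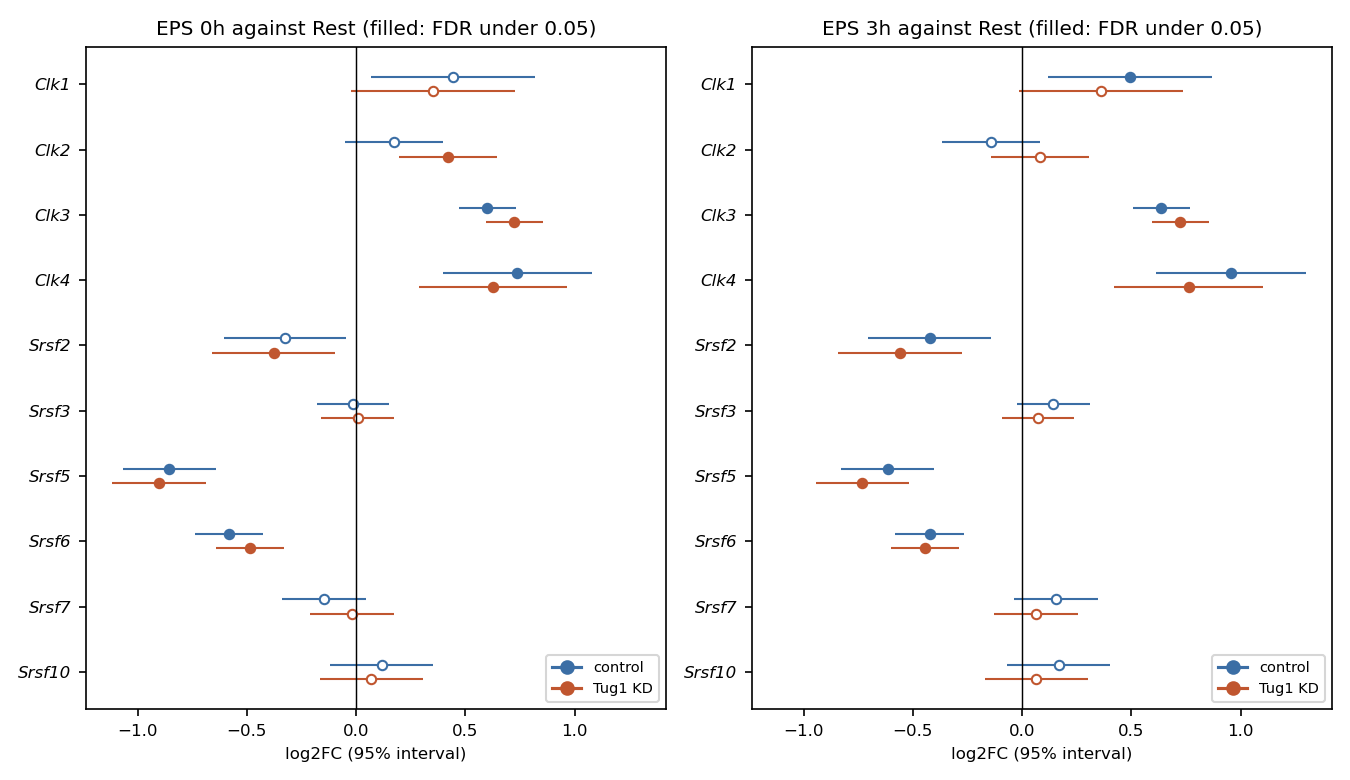
log2FC of the 10 genes at EPS 0h (left) and EPS 3h (right) against Rest, in control (blue) and *Tug1* KD myotubes (orange), with 95% intervals from the edgeR fit; filled points have an FDR under 0.05. *Clk3* and *Clk4* lie to the right of 0 and *Srsf5* and *Srsf6* to the left in all 4 contrasts, between −0.90 (*Srsf5*) and 0.96 (*Clk4*).

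Between EPS 0h and EPS 3h, control myotubes showed 2 called members. *Clk2* fell and *Srsf7* rose, where 9.67% of all genes were higher and 6.88% lower at the later time (7.37% and 12.5% with scaling by library size only, which called *Clk2* alone). *Clk2* went from 61.3, 64.4 and 73.6 CPM to 46.7, 53.7 and 58.4 CPM, with no overlap (log2FC −0.32, SE 0.11, FDR 0.0434). *Srsf7* went from 74.2, 82.3 and 90.7 CPM to 83.0, 96.4 and 125 CPM (0.30, SE 0.09, FDR 0.0239). Without the EPS 3h libraries of replicate 3 *Srsf7* no longer passed (0.23, FDR 0.0832). Leaving out replicate 2, 3, 4 or 6 also ended the *Srsf7* call, and leaving out replicate 1, 2, 4 or 6 ended the *Clk2* call. *Srsf5*, the member lowest relative to Rest at EPS 0h, had a log2FC of 0.24 between the time points (95% interval 0.03 to 0.45, FDR 0.122), and *Clk4* 0.22 (FDR 0.453). With the set as a block and without the EPS 3h libraries of replicate 3, *Clk4* (0.29, FDR 0.0254) and *Srsf3* (0.21, FDR 0.0244) also passed. In that fit *Srsf7* passed as well (0.23, FDR 0.0476).

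The EPS responses were also fitted to each set alone, where 40.8% (replicates 1 to 3) and 29.8% (replicates 4 to 6) of all genes were called in either direction at EPS 0h, and 48.9% and 48.7% after recovery. In control myotubes *Clk1*, *Clk3*, *Clk4*, *Srsf5* and *Srsf6* passed the test with the same sign in replicates 1 to 3 and in replicates 4 to 6 at both times. The share of all genes that met this joint rule is not given here. At EPS 0h *Clk4* had log2FC 0.65 (FDR 0.00299) and 0.87 (FDR 2e-05), and at EPS 3h 0.87 (FDR 0.000145) and 1.12 (FDR 3.59e-07). *Srsf5* had −1.19 (FDR 4.93e-06) and −0.49 (FDR 0.000919) at EPS 0h and −0.88 (FDR 2.08e-05) and −0.29 (FDR 0.0179) at EPS 3h.

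At Rest the mean of *Srsf5* was 408.3 CPM in replicates 1 to 3 and 287.0 CPM in replicates 4 to 6, while at EPS 0h the means were 179.5 and 205.0 CPM, so the sets lay farther apart before EPS than after it. *Srsf6* followed the same order with −0.67 and −0.48 directly after EPS and −0.56 and −0.25 after recovery. *Srsf2* passed at EPS 3h in replicates 1 to 3 (−0.61, FDR 0.00278) and had −0.17 (FDR 0.24) in replicates 4 to 6. *Clk2* had −0.01 (FDR 0.978) and 0.37 (FDR 0.0288) at EPS 0h. The difference between the sets was not itself tested.

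**Figure D4:**
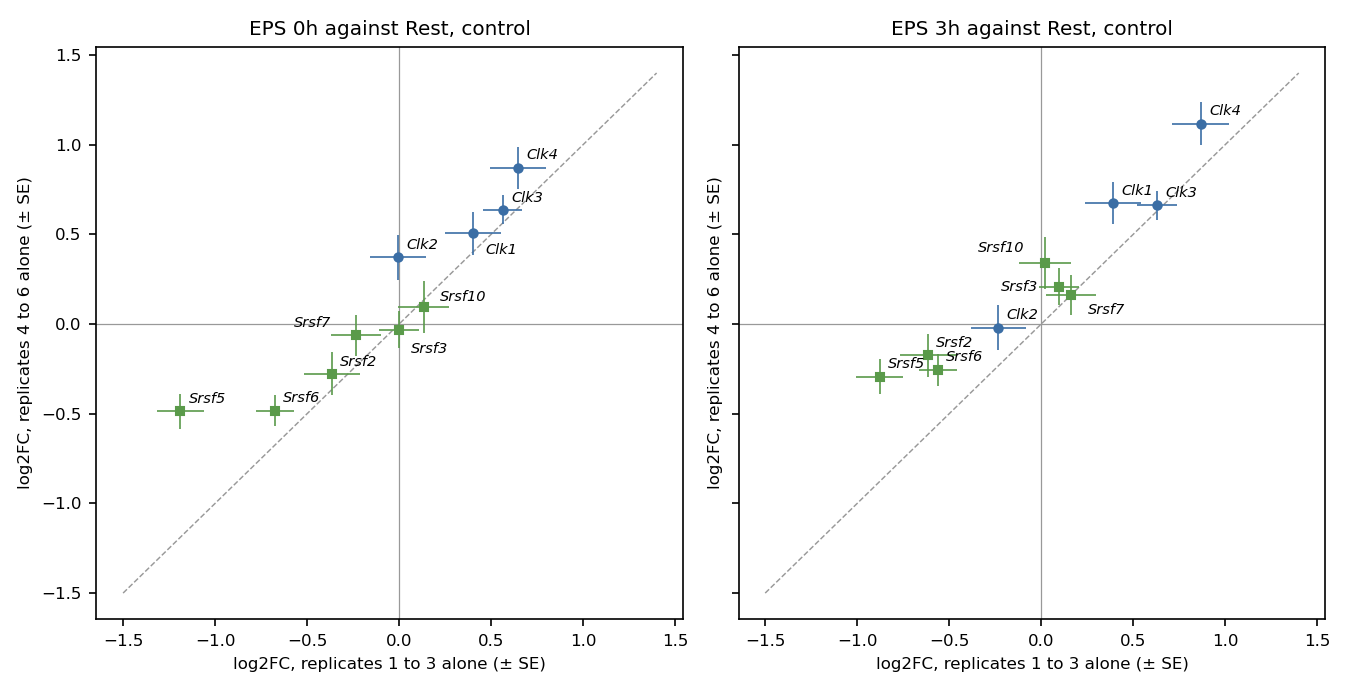
log2FC of the 10 genes in control myotubes at EPS 0h (left) and EPS 3h (right) against Rest, fitted to replicates 1 to 3 alone (x axis) and to replicates 4 to 6 alone (y axis), with SE as bars; circles are CLK genes, squares SR genes, and the dashed line marks equal values. *Clk1*, *Clk3* and *Clk4* are above 0 and *Srsf2*, *Srsf5* and *Srsf6* below 0 on both axes, and *Srsf5* is farthest from the line at EPS 0h (−1.19 and −0.49).

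In *Tug1* KD myotubes *Clk3*, *Clk4*, *Srsf2*, *Srsf5* and *Srsf6* passed the test at both times. At EPS 0h 6 of the 10 passed, *Clk2*, *Clk3* and *Clk4* higher and *Srsf2*, *Srsf5* and *Srsf6* lower, where 24.4% of all genes were higher, 21.2% lower (20.3% and 29.7% with scaling by library size only) and 10.7% met the stricter rule. At EPS 3h 5 passed, *Clk3* and *Clk4* higher and *Srsf2*, *Srsf5* and *Srsf6* lower, beside 26.2% of genes higher, 25.9% lower (2802 and 5671 genes with scaling by library size only, in place of 3668 and 3625) and 15.5% past the stricter rule. No member met that rule at either time. Of the 15 myotube markers tested in these myotubes, *Ttn* rose (0.87, FDR 0.00608) and *Tnnt3* fell (−0.48, FDR 0.013) at EPS 0h, and *Ttn* rose (0.71, FDR 0.0201) and *Myh1*, *Myog* and *Mymx* fell (−0.32, −0.29 and −0.56) at EPS 3h. Their part in the results was not tested.

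*Clk4* was at 53.5, 72.7 and 79.1 CPM at Rest, 83.4, 109 and 125 CPM at EPS 0h and 95.1, 115 and 143 CPM at EPS 3h in *Tug1* KD myotubes. Both EPS groups lie above every Rest library (log2FC 0.63, FDR 0.00264, and 0.76, FDR 0.000246). *Clk3* went from 33.4, 36.1 and 40.2 CPM to 55.9, 61.1 and 63.4 CPM and 54.4, 59.2 and 69.9 CPM (log2FC 0.72 at both times, FDR 3.87e-11 and 9.86e-12). *Clk2* was at 35.2, 48.0 and 54.7 CPM at Rest and rose to 53.1, 63.5 and 68.8 CPM at EPS 0h (0.42, SE 0.11, FDR 0.00212). It was at 44.0, 47.3 and 60.3 CPM at EPS 3h (0.08, FDR 0.556 against Rest).

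*Srsf5* was at 247, 343 and 386 CPM at Rest, 165, 173 and 205 CPM at EPS 0h (log2FC −0.90, FDR 1.26e-08) and 175, 203 and 223 CPM at EPS 3h (−0.73, FDR 3.34e-07) in *Tug1* KD myotubes. *Srsf6* was at 215, 239 and 270.5 CPM at Rest, 156, 173 and 183 CPM at EPS 0h (−0.49, FDR 4e-06) and 164, 174 and 197 CPM at EPS 3h (−0.45, FDR 9.04e-06). In neither gene did an EPS library reach the Rest range. *Srsf2* was at 64.0, 69.8 and 91.1 CPM at Rest, 36.1, 58.3 and 68.7 CPM at EPS 0h (−0.38, FDR 0.0256) and 42.8, 49.8 and 54.9 CPM at EPS 3h (−0.56, FDR 0.000977). *Srsf2* overlaps its Rest group at EPS 0h and not at EPS 3h, and its call at EPS 0h was lost without replicate 2 (FDR 0.0537) or 5 (FDR 0.0691).

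Within sets of *Tug1* KD myotubes, where 54.2% and 28.4% of all genes were called at EPS 0h, and 53.2% and 43.9% after recovery, *Clk3*, *Clk4*, *Srsf5* and *Srsf6* passed with the same sign in replicates 1 to 3 and in replicates 4 to 6 at both times. For this joint rule too the share of all genes is not given here. *Srsf2* passed in both sets at EPS 3h (−0.61 and −0.48), while at EPS 0h it had −0.27 (FDR 0.14) in replicates 1 to 3 and −0.50 (FDR 0.00383) in replicates 4 to 6. *Clk2* at EPS 0h had 0.33 (FDR 0.074) in replicates 1 to 3 and 0.53 (FDR 0.00335) in replicates 4 to 6.

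*Clk1* had 90.3, 103 and 123 CPM at Rest, 98.5, 127 and 182 CPM at EPS 0h (log2FC 0.35, FDR 0.117) and 102, 136 and 176 CPM at EPS 3h (0.36, FDR 0.1) in *Tug1* KD myotubes. It passed at EPS 0h with the replicate number as a block (0.32, FDR 0.0115). At EPS 3h *Clk1* passed with the set as a block (0.34, FDR 0.00681) and in replicates 1 to 3 alone (0.49, FDR 0.0116). In replicates 4 to 6 alone it did not pass at EPS 3h (0.23, FDR 0.129). Within sets it was 0.59 (FDR 0.00362) in replicates 1 to 3 and 0.05 (FDR 0.803) in replicates 4 to 6 at EPS 0h. *Srsf3*, *Srsf7* and *Srsf10* had log2FC between −0.02 and 0.07 at both times and passed at neither. From EPS 0h to EPS 3h 1 member passed, *Clk2*, which fell (−0.34, SE 0.11, FDR 0.0304), beside 8.59% of all genes higher and 7.13% lower (7.31% and 12.4% with scaling by library size only). Without the EPS 3h libraries of replicate 3 it was −0.33 (FDR 0.0644), and leaving out replicate 1, 4, 5 or 6 ended its call as well.

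*Tug1* KD against control asks whether the level of these genes depends on *Tug1*. At Rest 1 of the 10 passed, *Clk2*, which was lower in *Tug1* KD myotubes, where 5.54% of all genes were higher and 4.47% lower. At EPS 0h 1 passed, *Srsf7*, which was higher, beside 8.25% higher and 6.07% lower over all genes (7.05% and 7.99% with scaling by library size only). At EPS 3h edgeR called none of the 10, beside 6.38% higher and 5.11% lower over all genes. In that edgeR fit 2 of the 10 had an unadjusted p under 0.05 (*Clk4* and *Srsf6*), beside 3299 of the 13995 genes tested. DESeq2 and limma-voom also called none at EPS 3h. The median log2FC of the 10 was −0.02 at Rest, −0.05 at EPS 0h and −0.13 at EPS 3h, beside −0.03, 0.00 and −0.01 over all genes. Of the 15 myotube markers tested none passed at Rest by edgeR, while *Neb* was higher (1.08, FDR 0.0135, and 1.02, FDR 0.0251) and *Actn3* lower (−0.36 at both, FDR 0.0362 and 0.0419) in *Tug1* KD myotubes after EPS. Their part in the results was not tested, and these markers were named after their values were seen.

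*Clk2* at Rest was 44.6, 63.3 and 69.9 CPM in control and 35.2, 48.0 and 54.7 CPM in *Tug1* KD myotubes (log2FC −0.33, SE 0.11, FDR 0.0474), with overlap. The call stood close to the threshold, since it was lost without replicate 1, 2, 3, 5 or 6, with limma-voom (FDR 0.0517), without the EPS 3h libraries of replicate 3 (−0.31, FDR 0.0752) and in each set alone (−0.46, FDR 0.0765, and −0.18, FDR 0.344). *Srsf7* at EPS 0h was 74.2, 82.3 and 90.7 CPM in control and 95.3, 103 and 114 CPM in *Tug1* KD myotubes, with no overlap (0.35, SE 0.09, FDR 0.00991, 1.27-fold). *Srsf7* lost its call without replicate 4 (0.31, FDR 0.0738), with no filter on low counts (0.33, FDR 0.0834) and in each set alone (0.41, FDR 0.086, and 0.30, FDR 0.0745). At Rest *Srsf7* was 87.0, 88.7 and 102 CPM in control and 93.0, 109 and 114 CPM in *Tug1* KD myotubes (0.22, FDR 0.155), and at EPS 3h its log2FC was 0.13 (FDR 0.46). With the set as a block and without the EPS 3h libraries of replicate 3, *Srsf7* passed at Rest (0.24, FDR 0.0341).

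*Clk4* had lower means in *Tug1* KD than in control myotubes under all 3 conditions without passing the test, with log2FC −0.26 at Rest (FDR 0.414), −0.37 at EPS 0h (SE 0.17, FDR 0.142) and −0.45 at EPS 3h (SE 0.17, 95% interval −0.79 to −0.11, FDR 0.0753). With the replicate number as a block it did pass at both (−0.37, FDR 0.00465, and −0.44, FDR 0.00105). At Rest the sets differ in sign, with −0.52 (FDR 0.0514) in replicates 1 to 3 and 0.08 (FDR 0.658) in replicates 4 to 6. After EPS, within replicates 4 to 6 it was −0.36 (FDR 0.0425) and −0.41 (FDR 0.027), and within replicates 1 to 3 −0.36 (FDR 0.186) and −0.48 (FDR 0.0692). *Clk1* and *Clk4* are close paralogs, and how reads that map to both were counted is not given in the sources used here.

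**Figure D5:**
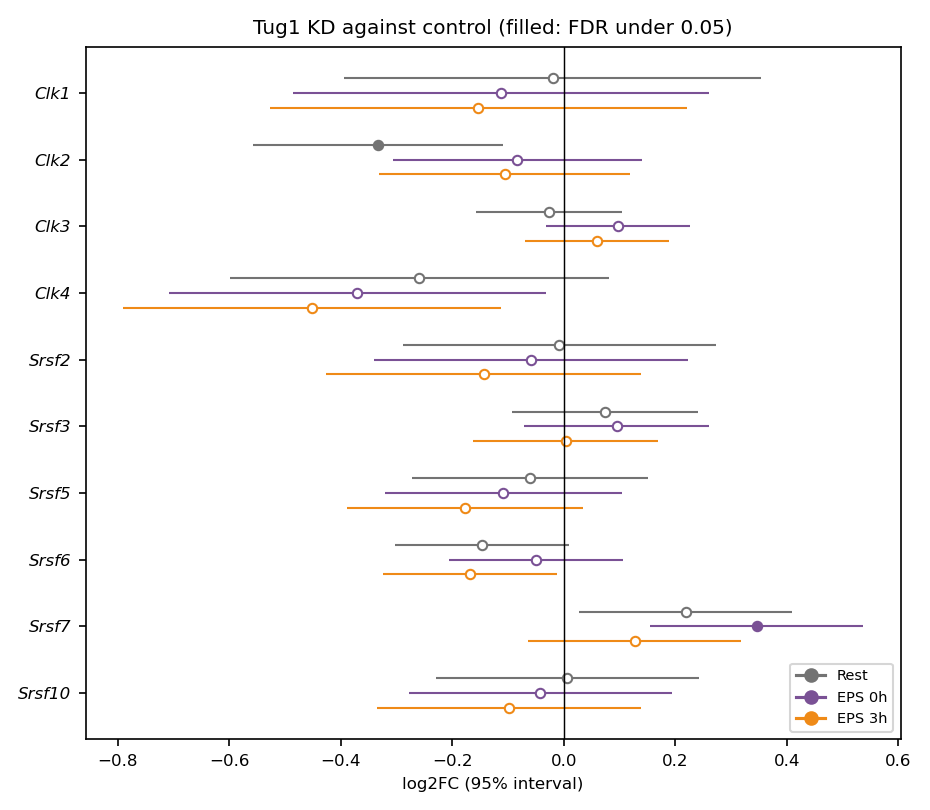
log2FC of the 10 genes in *Tug1* KD against control myotubes at Rest (grey), EPS 0h (purple) and EPS 3h (orange), with 95% intervals from the edgeR fit; filled points have an FDR under 0.05. The filled points are *Clk2* at Rest (−0.33) and *Srsf7* at EPS 0h (0.35), and all 3 points of *Clk4* lie left of 0 (−0.26 to −0.45).

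The interaction asks whether the EPS response itself differs between *Tug1* KD and control myotubes. No member passed (FDR 1 for all 10 at both times), and 0 members had an unadjusted p under 0.05 over the 6 replicates. The difference in response, *Tug1* KD minus control, ran from −0.11 for *Clk4* (95% interval −0.59 to 0.37) to 0.25 for *Clk2* (−0.07 to 0.57) at EPS 0h, and from −0.19 for *Clk4* (−0.67 to 0.29) to 0.23 for *Clk2* (−0.09 to 0.54) at EPS 3h. The sets differ in sign here for *Clk1*, *Clk4* and *Srsf5*, while *Clk2* and *Clk3* had positive values in both sets at both times. In replicates 4 to 6 alone *Clk1* had −0.46 and −0.45 (unadjusted p 0.0126 and 0.0141), *Clk4* −0.44 and −0.50 (0.0154 and 0.00711) and *Srsf5* −0.32 and −0.35 (0.0293 and 0.0194) at the earlier and later time, while in replicates 1 to 3 alone the values were 0.19 and 0.10 for *Clk1*, 0.15 and 0.04 for *Clk4* and 0.20 and 0.07 for *Srsf5*. None of these edgeR tests of *Clk1*, *Clk4* and *Srsf5* passed after adjustment (FDR at least 0.734). The interval of *Clk1* at EPS 0h (−0.62 to 0.44) includes differences as large as its response in control myotubes (0.44). Over all genes edgeR called 0 at EPS 0h (0%) and 1 at EPS 3h (0.00715%), as did DESeq2 and limma-voom, with 324 and 430 genes at an unadjusted p under 0.05. So *Clk1* at EPS 3h and *Clk2* at EPS 0h are not shown to respond differently between the LNAs. In the fit without a block, *Clk1* was called there in control myotubes only and *Clk2* in *Tug1* KD myotubes only.

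Across the 36 libraries *Clk1* and *Clk4* varied together (Pearson r of log2 CPM 0.883, and 0.845 after centring on group and set), as did *Srsf5* and *Srsf6* (0.918, and 0.56 after centring). *Srsf3* and *Srsf10* had r 0.726 and 0.785 after centring. *Clk3* ran against *Srsf5* (−0.835), and after centring that relation was 0.02, and 0.18 after centring on group alone, so it rested on the differences between groups. These are descriptions over libraries that share groups, sets and scaling. The genes outside the 10 whose level was most alike that of *Clk4* were *Fam107b* (r 0.963), *Ing3* (0.949), a reader of histone methylation, and *Hsf2* (0.946), a heat shock transcription factor. All 3 rose in control myotubes, with log2FC 0.61, 0.80 and 0.47 directly after EPS and 0.81, 0.96 and 0.62 after recovery. Most alike *Srsf5* were *Gm47015* (0.925), *Mir22hg* (0.925), the host transcript of a microRNA, and *Dusp13* (0.921), a phosphatase gene of muscle and testis, which fell by 1.90, 1.78 and 1.08 on the log2 scale directly after EPS and fell by 1.76, 1.49 and 1.04 after recovery. Most alike *Clk1* were *Zfp948* (0.941), *Fgd4* (0.917) and *Ildr2* (0.914), and most alike *Srsf3* were *Tmed5* (0.837), *Eif2a* (0.828) and *Ptcd3* (0.807). After centring on group and set these r were, in the order named, 0.635, 0.771 and 0.861 for *Clk4* and 0.615, 0.504 and 0.537 for *Srsf5*. They were 0.799, 0.684 and 0.531 for *Clk1* and 0.785, 0.754 and 0.769 for *Srsf3*. These genes were picked by r over all groups, so a direction after EPS shared with the member is partly built in.

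The rest of the machinery was counted from lists of other SR genes, kinases, hnRNPs, spliceosome proteins and regulators, in control myotubes. Of the 4 other SR genes tested, *Srsf1*, the founding member of the family, rose at both times (log2FC 0.27, FDR 0.0441, and 0.53, FDR 9.03e-05), *Srsf11* rose at EPS 3h (0.69, FDR 0.00031), *Srsf9* had 0.21 at EPS 0h (FDR 0.118), and none fell. Of 13 kinases and phosphatases of SR proteins outside the CLK family, 5 rose and 3 fell at EPS 0h, and 5 rose and 2 fell at EPS 3h. *Dyrk1a*, a kinase related to the CLKs, went from a mean of 87.9 CPM at Rest to 149 at EPS 0h (0.76, FDR 1.72e-05) and 191 at EPS 3h (1.12, FDR 6.8e-09), and *Ppp1r10*, a nuclear partner of protein phosphatase 1, rose at EPS 0h (0.59, FDR 6.15e-05). *Srpk3*, the SR protein kinase of muscle, went from 89.7 CPM to 60.5 and 62.8 CPM (−0.51 at EPS 3h, FDR 0.000137). The others that rose at both times were *Dyrk2*, *Ppp1cb* and *Ppp1cc*, with *Ppp1r10* again at EPS 3h, and the others that fell were *Srpk2* (EPS 0h), *Srpk3* (EPS 0h) and *Dyrk1b* (both times), named after their values were seen.

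Counts for the wider spliceosome are read beside the 20.5% of all genes higher and 18.4% lower at EPS 0h, and the 26.1% and 25.9% at EPS 3h. SR-related proteins had 5 higher and 3 lower of 33 at EPS 0h, against 12 and 3 after recovery, with *Tra2b*, a splicing activator, at 0.54 (FDR 1.49e-05) and 1.15 (FDR 1.09e-12) and *Cdk13*, a transcription elongation kinase with an arginine/serine-rich domain, at 0.59 (FDR 1.63e-07) and 0.92 (FDR 3.81e-12). Of 26 hnRNP genes 5 were higher and 3 lower at EPS 0h, against 12 and 3 after recovery, among them *Hnrnpc* (0.38, FDR 5.91e-05, and 0.80, FDR 1.2e-11), *Ptbp1* (0.61 at EPS 0h, FDR 1.95e-06) and *Ptbp2* (1.25 at EPS 3h, FDR 8.48e-08), the last pair repressors of alternative exons. Of 37 core spliceosome genes 7 were higher and 1 lower at EPS 0h, against 14 and 1 after recovery, with the helicase gene *Dhx15* at 0.60 (FDR 4.79e-06) and 1.05 (FDR 2.09e-11), *Prpf3* at 0.57 (EPS 0h, FDR 9.27e-06) and *Sf3b3* at 0.51 (EPS 3h, FDR 5.38e-08). Median log2FC at EPS 3h was 0.16 for SR-related, 0.27 for hnRNP and 0.16 for core spliceosome genes, beside 0.15 for the 10 genes and −0.02 over all genes. Of 10 nonsense-mediated decay factors 2 rose and 2 fell at EPS 0h, and 4 fell at EPS 3h, with *Smg1*, the kinase of the pathway, at 0.70 (FDR 0.000964) and 0.81 (FDR 9.87e-05) and *Smg8* at 0.35 (EPS 0h, FDR 0.000682).

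Of 11 splicing regulators of muscle, 4 rose and 1 fell at each time, among them *Mbnl2* (log2FC 0.94, FDR 0.000275, and 1.04, FDR 3.82e-05) and *Celf2* (0.69, FDR 0.00178, and 0.97, FDR 1.65e-05), whose products often act on the same exons in opposite directions. Against control, 4 of the 11 were higher in *Tug1* KD myotubes at Rest, 5 at EPS 0h and 3 at EPS 3h and none was lower, beside 5.54%, 8.25% and 6.38% of all genes higher, with *Celf2* at 0.63 (FDR 0.0152), 0.72 (FDR 0.00366) and 0.62 (FDR 0.0142). The others, named after their values were seen, were *Rbfox1* (1.34 at Rest) and *Rbm20* (0.30, 0.47 and 0.52) under all 3 conditions, *Rbm24* at Rest and EPS 0h and *Mbnl1* at EPS 0h.

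The other genes behind the small counts in these lists, also named after their values were seen, were the following. Of the SR-related genes *Rsrc2*, *Dhx8* and *Ccnl1* rose and *Rsrp1*, *Snrnp70* and *Sfswap* fell at EPS 0h, and *Snrnp70*, *Scaf1* and *Scaf8* fell at EPS 3h. Of the hnRNP genes *Hnrnph2*, *Ptbp2* and *Ptbp3* rose and *Hnrnpa1*, *Hnrnpr* and *Hnrnpul2* fell at EPS 0h, and *Hnrnpl*, *Hnrnpul1* and *Hnrnpul2* fell at EPS 3h. Of the core spliceosome genes *Prpf31* fell at EPS 0h and *Dhx16* at EPS 3h. Of the decay factors *Smg5* and *Smg9* fell at both times and *Upf3b* and *Smg6* at EPS 3h. Of the muscle regulators *Mbnl3* rose at both times, *Rbm38* at EPS 0h and *Mbnl1* at EPS 3h, while *Khdrbs1* fell at EPS 0h and *Rbfox2* at EPS 3h.

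Genes that mark stress and other cells moved with EPS too. Their counts in control myotubes are read beside the shares of all genes given for the lists above. Of 16 heat shock genes tested, 14 rose in control myotubes directly after EPS and 15 after recovery and none fell, with *Hspd1* at 1.58 (FDR 7.98e-13) and 2.59 (FDR 1.15e-18) and *Hspa1b* at 1.82 (FDR 5.74e-12) and 3.22 (FDR 2.85e-18). Their summed level was 19679 to 26569 CPM at Rest, 41452 to 52050 CPM at EPS 0h and 73360 to 97645 CPM at EPS 3h. In *Tug1* KD myotubes the medians were 19840, 47695 and 81108 CPM. Of 8 myoblast and proliferation markers *Myf5* (1.31, FDR 3.54e-06) and *Mki67* rose and *Ccnb1* fell (−0.37, FDR 0.0181) at EPS 0h, while *Mki67* rose and *Pax7* (−0.62, FDR 0.000339) and *Ccnb1* (−0.42, FDR 0.00482) fell at EPS 3h. Their summed level in control myotubes was 182 to 217 CPM at Rest, 221 to 252 CPM at EPS 0h and 164 to 219 CPM at EPS 3h.

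Of 8 fibroblast and adipocyte markers 2 were tested, *Dcn* and *Pdgfra*, and *Pdgfra* fell (−0.86, FDR 1.38e-05, and −0.95, FDR 1.24e-06). Their summed level was 127 to 168 CPM at Rest and 112 to 223 CPM at EPS 3h, and *Tcf21* and *Plin1* had at most 3 counts in every library. Of 8 endothelial and immune markers 3 were tested, and their summed level was 4.71 to 7.90 CPM at Rest and 6.81 to 14.6 CPM at EPS 3h. *Kdr*, a receptor of endothelial cells, rose at both times (2.12, FDR 0.000271, and 4.67, FDR 4.89e-12), *Pecam1* rose at EPS 3h (2.28, FDR 2.33e-06) and *Cd68*, a macrophage gene, fell at EPS 0h (−0.44, FDR 0.0453) and EPS 3h. Between the LNAs *Pdgfra* was lower in *Tug1* KD myotubes under all 3 conditions (−0.57, −0.80 and −0.69) and *Cd68* at Rest and EPS 3h (−1.02 and −0.72), and of the myoblast and proliferation markers *Mcm5* was lower at EPS 0h (−0.41, FDR 0.0238) and *Ccnb1* at EPS 3h (−0.39, FDR 0.0406). The median log2FC of those 8 markers between the LNAs was −0.28, −0.25 and −0.22 at Rest, EPS 0h and EPS 3h. These differences between the LNAs were named after their values were seen. The part of these genes in the CLK and SR results was not tested, and in bulk RNA a change in the share of a cell type and a change per cell cannot be told apart.

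Genes that overlap or adjoin the members were compared with them, since the strand setting of the counting is not given in the sources used here. Of the 10 members 4 are overlapped by a gene that was tested, always on the opposite strand. *Edc3* overlaps *Clk3* by 2455 bases and rose at EPS 0h (0.30, FDR 0.00819, beside 0.60 for *Clk3*) and had 0.17 at EPS 3h (FDR 0.128). *Mfsd11* overlaps *Srsf2* by 2009 bases and rose at EPS 0h (0.36, FDR 0.000396), and *Mettl23*, which overlaps it by 3796 bases, had 0.19 (FDR 0.17), so both had the opposite sign to *Srsf2*. *Pnrc2* overlaps *Srsf10* by 3657 bases and rose at EPS 0h (0.27, FDR 0.0493) where *Srsf10* had 0.12. *Trp53cor1*, which spans *Srsf3* by 11027 bases, had 3.63 ± 0.729 CPM (SD, n = 6) at Rest, and passed neither EPS comparison in control myotubes. *Scamp3*, which starts within 1 kb of the end of *Clk2* on the same strand, rose by 0.86 (FDR 1.33e-07) at EPS 0h and 1.09 (FDR 3.07e-10) at EPS 3h while *Clk2* passed neither.

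In GRCm39 *Clk1* (ENSMUSG00000026034) lies at chr1:58449348-58463234 (− strand), *Clk2* (ENSMUSG00000068917) at chr3:89072098-89084228 (+), *Clk3* (ENSMUSG00000032316) at chr9:57657836-57677642 (−) and *Clk4* (ENSMUSG00000020385) at chr11:51152552-51174060 (+). The SR genes are *Srsf2* (ENSMUSG00000034120, chr11:116740723-116744518, −), *Srsf3* (ENSMUSG00000071172, chr17:29251321-29262347, +), *Srsf5* (ENSMUSG00000021134, chr12:80986436-80997630, +), *Srsf6* (ENSMUSG00000016921, chr2:162773299-162780234, +), *Srsf7* (ENSMUSG00000024097, chr17:80507501-80514879, −) and *Srsf10* (ENSMUSG00000028676, chr4:135583043-135602548, +). Each is annotated as protein-coding.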

How the data were processed

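The authors trimmed the reads with fastp 0.14.1 after FastQC 0.11.7, aligned them to GRCm39 with STAR 2.5 (versions per the submitters' processing notes) and deposited whole-number counts per gene from stranded poly-A libraries, without normalization. The counting tool and its strand setting are not given in the sources used here. Genes without a name (1492, 0.0327% of counts) were kept as deposited.

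Counts were analysed with edgeR 4.0.16 (R 4.3.3). A gene was kept if 12 or more of the 36 libraries had 1 RPM or more (13995 genes). After TMM scaling, 1 robust quasi-likelihood fit covered all 6 groups, with no block and no pairing of libraries. Pairing by replicate number entered only the alternative fit with that number as a block. FDR is the Benjamini-Hochberg value over all genes tested, called under 0.05. The scripts were tested on counts simulated for EPS 0h against Rest in control myotubes. There edgeR called 51% of the genes changed by 0.5 on the log2 scale and 90% of those changed by 1. CPM are TMM-scaled. Alternatives were DESeq2 1.42.0, limma-voom (limma 3.58.1), scaling by library size or upper quartile, no filter and a stricter filter, a block on the replicate number or on the set (replicates 1 to 3 against 4 to 6, inferred from how the libraries part and not from the labels), single sets, the compared groups alone and each replicate left out. The 10 genes and all lists were chosen with earlier results of these data known. The genes named by rule are the 10, from each list the 2 smallest FDR at each EPS time in control myotubes, 3 alike genes for each of 4 members, overlapping or adjoining genes and *Tug1*. All other list genes in the text were named after their values were seen. The result of 1 list gene is not reported here.

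Same-numbered libraries were taken as pairs where all 6 pairs correlated over 0.1 after centring (from 0.122 upward), which held for control myotubes after EPS against Rest, KD at EPS 0h against Rest, KD at EPS 3h against EPS 0h, and KD against control at EPS 0h and EPS 3h. Within sets these correlations ran from −0.175 to 0.116 for control myotubes at EPS 0h against Rest and −0.0177 to 0.241 at EPS 3h, with 2 and 5 of 6 libraries most like their own number. The sets thus carry much of the pairing in those comparisons. For KD against control the correlations within sets ran from 0.216 to 0.532 at EPS 0h and 0.0321 to 0.719 at EPS 3h. There 6 and 2 of 6 libraries were most like their own number, so at EPS 0h the numbers also pair libraries within sets. For KD myotubes they ran from −0.0501 to 0.254 at EPS 0h against Rest and −0.25 to 0.598 at EPS 3h against EPS 0h. Libraries of a group differed by more than counting error (chi-square per degree of freedom at least 4.258).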

Additional observations from a re-analysis of the deposited data

Results flagged for a closer look

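The level of *Srsf3* in Rest control replicate 1 was 240 CPM, above the next library of its group at 202 CPM by 0.752 of the group's range. The level of *Srsf7* in the same library was 102.5 CPM, above the next at 90.23 CPM by 0.789 of the range. Both were picked out because a single library lay farther from the others than Dixon's 95% critical value for groups of 6. Chance gives about 1 such library in 20 groups, and 60 groups of 6 were tested, of which 2 were picked out.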

How the results depend on the processing

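Of 2090 comparisons of a member's main result with an alternative, 2002 kept their side of the threshold, 46 lost the call and 42 gained one. The sign changed in 141, of which 0 were called in either fit, and the main log2FC of these was at most 0.26 in size. The 4 EPS comparisons with Rest kept counts within 1.5 times. For control myotubes at EPS 3h against EPS 0h the main count of 2 became 1 with library size only, no filter, at least 10 counts in 6 libraries, replicates 4 to 6 alone, the compared groups alone or without the EPS 3h libraries of replicate 3, became 0 with replicates 1 to 3 alone, became 4 with the set block without those libraries, and ranged from 0 to 2 over single left-out replicates. For *Tug1* KD at EPS 3h against EPS 0h the main count of 1 became 0 with replicates 1 to 3 alone and without those libraries, and ranged from 0 to 1 over left-out replicates. For *Tug1* KD against control at Rest the count of 1 became 0 with limma-voom, no filter, either set alone, the compared groups alone or without those libraries, became 2 with the set block without them, and ranged from 0 to 1. At EPS 0h the count of 1 became 0 with no filter and replicates 1 to 3 alone, became 2 with the replicate block, the set block and the set block without those libraries, and ranged from 0 to 1. At EPS 3h the count of 0 became 1 with the replicate block, either set block and replicates 4 to 6 alone. The alternatives without those libraries were chosen after seeing the data. The causes were not tested. The replicate block also called *Clk1* in *Tug1* KD at EPS 3h against Rest (0.34, FDR 0.00594), where the numbers do not pair the libraries. The set block, which does not use the numbers as pairs, called it too (0.34, FDR 0.00681). Beside this *Clk1* call and the calls given with the results, the replicate block changed none. With scaling by library size only the median of all genes moved by −0.168 at EPS 3h in control myotubes, and 19.1% of genes were then higher and 39.5% lower. Counts of the 10 genes were at least 621 per library. Whether counting error or the spread between wells set the precision was not tested for single members.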
